A study of Canis lupus familiaris with 8 samples.

Results

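The spindle, centromere and cytokinesis genes are 43 genes, chosen by name, that carry out the physical work of cell division. Of these, 41 had a row among the 35048 gene rows of the count tables, and CENPI and MAD2L1 were not analysed here. In peripheral blood mononuclear cells (PBMCs) of 5 obese and 3 normal dogs, 40 of the 41 had a lower fitted level in the obese dogs, with a median log2 fold change (obese minus normal) of -1.38 against 0.09 over all genes tested. For 21 of the 41 every obese dog lay below every normal dog, against 5.16% of all genes tested. For none did every obese dog lie above, against 5.75% of all genes. After adjustment over all genes the formin DIAPH3 alone passed the threshold, where 0.184% of all genes tested were called lower.

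When a cell divides, centromere proteins mark the place on each chromosome where microtubules will attach. Mitotic kinases and kinesin motors build the spindle, a bipolar array of microtubules that pulls the sister chromosomes apart, and a contractile ring of actin and myosin then splits the cytoplasm. Many of these genes are transcribed mainly in late S, G2 and M phase, so that their messages are scarce in resting cells. Most lymphocytes and monocytes in blood are resting, and the blood cells in cycle are few, such as activated lymphocytes and plasmablasts.

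The study asked how gene expression in PBMCs differs between obese and normal dogs. The obese group held a Dachshund (dog 1), a Chihuahua (dog 2), Labrador retrievers (dogs 3 and 4) and a Welsh Corgi (dog 5), and the 3 normal dogs were Beagles. No normal dog shared a breed with an obese dog, so breed and obesity cannot be told apart in any difference below. The labels state no age, sex, body condition score, diet or treatment. The libraries were made with the QuantSeq kit, which reads tags near the poly(A) tail, and levels were not corrected for length. Whether levels can be set side by side between genes was not tested. Each label names a separate dog, so the replicates are animals.

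The libraries held 10264202 to 14910982 counts, and the members' share of them ran from 0.0537% to 0.0601% in obese and from 0.0926% to 0.135% in normal dogs. Levels are given as CPM, a gene's share of the library's counts on a fixed scale, after TMM scaling, which corrects the library totals for a few very abundant genes. T cell and monocyte markers were present in every dog, with summed levels of at least 237 and 739 CPM. The library of obese dog 3 stood apart in its marker sums. Its 8 erythroid markers summed to 1174 CPM against at most 56.7 CPM in any other dog. Most of that was ALAS2, AHSP and HBM, at 569, 284 and 283 CPM. Among the obese dogs EPB42 was instead highest in dog 1, and HBE1 and SLC4A1 in dog 2. The gene with the most counts over all dogs took 20.6% of the counts in obese dog 3 and at most 14.4% in the other obese dogs. The 10 neutrophil markers of obese dog 3 summed to 7191 CPM against 247 to 1001 CPM in the other obese dogs. Much of that neutrophil sum was S100A8, S100A9 and S100A12, at 2131, 2225 and 1927 CPM in obese dog 3. CXCR2, CSF3R, PADI4 and MMP9 were also highest in obese dog 3 among the obese dogs. LTF, CAMP and MMP8 were instead highest in obese dog 1. The summed neutrophil markers were also high in the normal dogs, at 1727, 7020 and 4466 CPM. Because of this library, results are given with and without obese dog 3. In bulk blood cells, fewer cells of a dividing type and less of a message per cell cannot be told apart.

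Summed over the 41 members, the level was 651, 569, 721, 456 and 484 CPM in obese dogs 1 to 5 and 1246, 1066 and 1231 CPM in normal dogs 1 to 3. The groups did not overlap, and the lowest normal dog stood above the highest obese dog, dog 3. NUSAP1 alone made up 41.2% of the sum in obese dog 1. NUSAP1, TACC3 and CKAP2 were singled out after their values were seen. Abundance alone does not pick them, since MKI67 (7024 counts) was kept above TACC3 (6921) and CKAP2 (4638). NUSAP1 and CKAP2 had log2 fold changes near 0 (-0.06 and -0.11), and TACC3 changed sign under some alternatives. Without these members, the sums ran from 260 to 481 CPM in obese dogs and from 632 to 990 CPM in normal dogs. Given that choice, these sums are a description only. Most members were scarce: the mean level was under 10 CPM for 28 of 41 in the obese dogs and for 15 of 41 in the normal dogs.

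**Figure D1:**
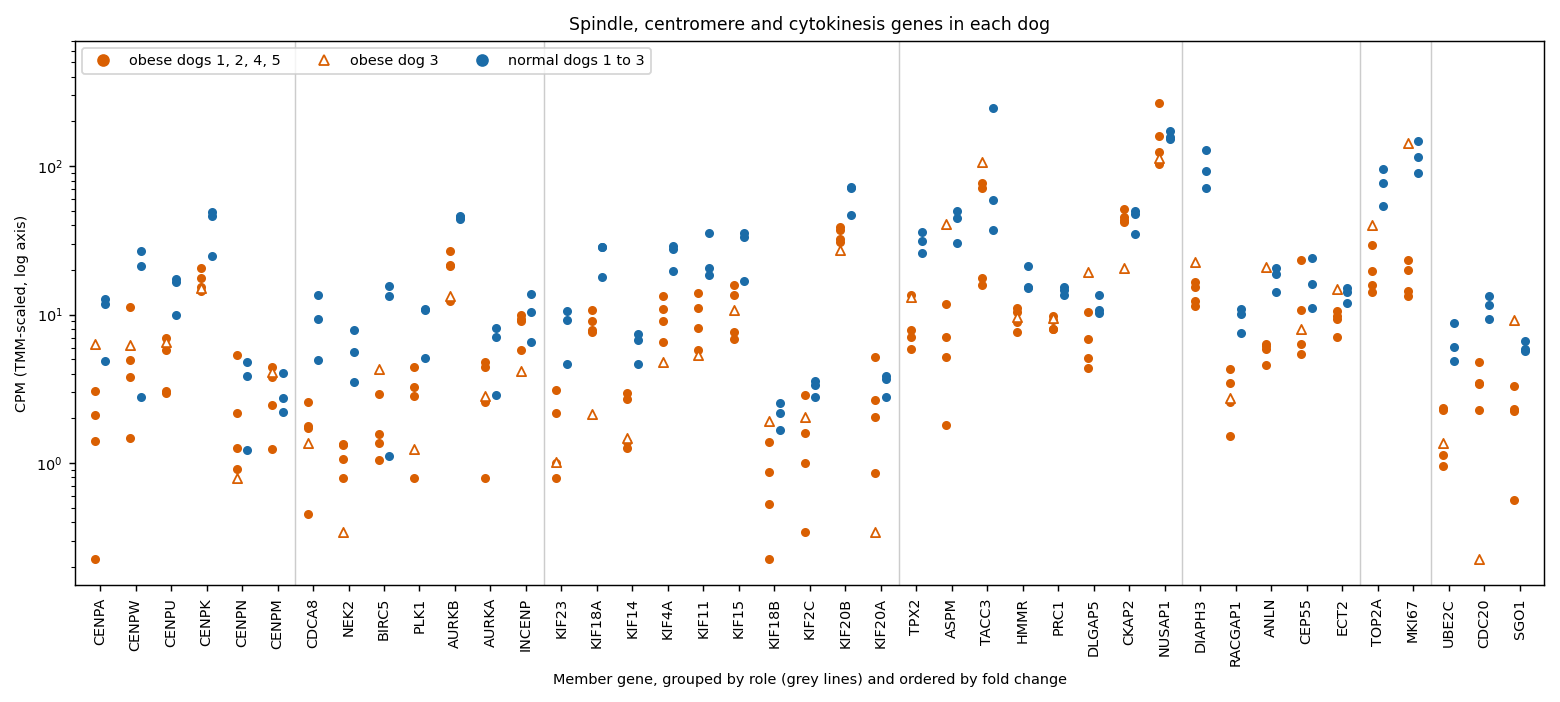
Level of each of the 41 members in each dog, in TMM-scaled CPM on a log axis, grouped by role and ordered by fold change within a role. Orange circles are obese dogs 1, 2, 4 and 5, the open triangle is obese dog 3 and blue circles are the normal dogs; for 21 members all orange symbols lie below all blue ones.

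A gene was called when its edgeR quasi-likelihood adjusted p was under 0.05 over the 20632 genes tested, and all 41 members passed the filter on low counts. One member was called lower in the obese dogs, where 0.184% of all genes tested were called lower. No member was called higher, where 0.0485% of all genes were. At an unadjusted p under 0.05, edgeR gave 24 of 41 members, against 15.7% of all genes tested (3246). The 21 members with every obese dog below every normal dog compare with 5.16% of all genes, and the 0 with every obese dog above compare with 5.75%. Without obese dog 3, 29 members had every obese dog below every normal dog, against 12.8% of all genes. Of all genes tested, 44.7% had a negative log2 fold change.

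The number of calls rested on single libraries and on the tool. Without obese dog 3, edgeR called 22 members lower and 0 higher, where 5.03% of all genes were called lower and 3.25% higher, and the median of the members was -1.47 against 0.02 over all genes. With all 8 dogs, the DESeq2 Wald test called 19 members lower (2.11% of all genes with an adjusted p) and limma-voom with quality weights called 28 (9.9% of all genes). The quality weights gave obese dog 3 the lowest weight, 0.279. Without obese dog 1, 2 or 4, or without normal dog 3, edgeR called no member, with 19 to 24 members at an unadjusted p under 0.05. In these fits 1735 to 3011 of the 19969 to 21274 genes tested had such a p.

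**Figure D2:**
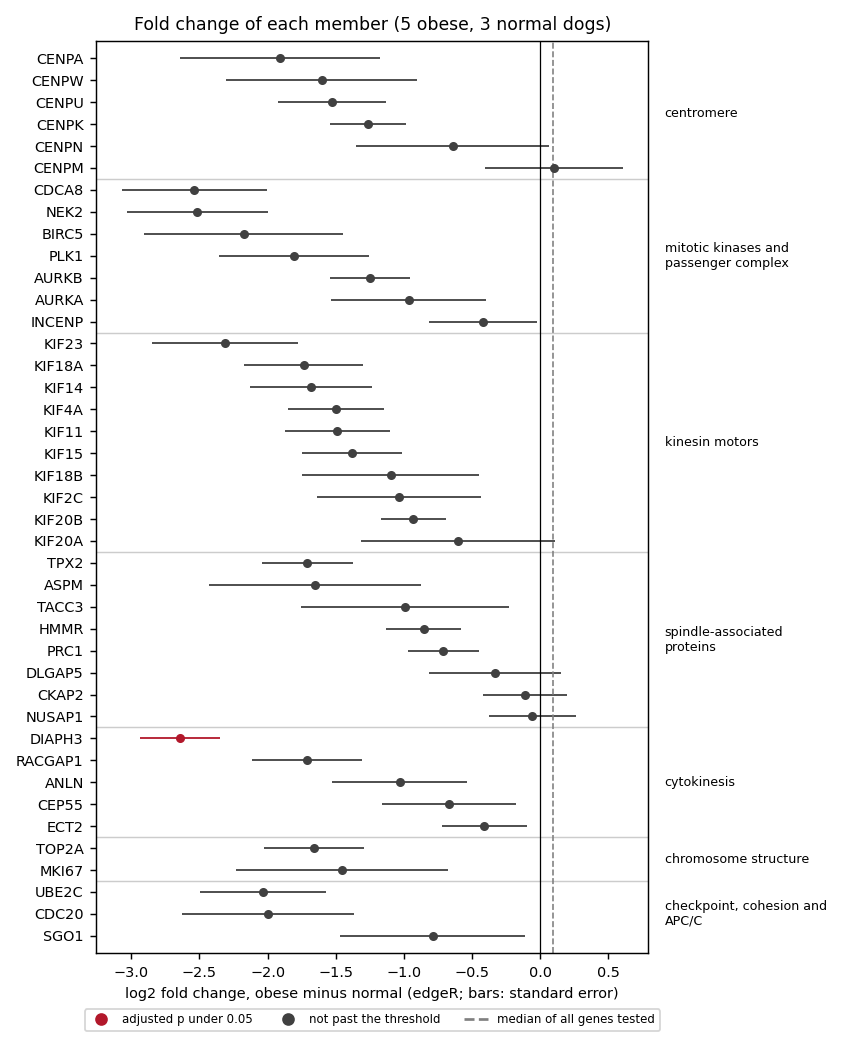
Log2 fold change (obese minus normal) of each member from edgeR over all 8 dogs, with bars of 1 standard error. DIAPH3 (red) is the member past the adjusted threshold, CENPM lies at 0.10, and the dashed line is the median of all genes tested, 0.09.

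The 5 cytokinesis genes were all negative, with a median log2 fold change of -1.03. DIAPH3 encodes a formin, which builds unbranched actin filaments for the contractile ring. Its level was 16.6, 15.4, 22.6, 11.4 and 12.3 CPM in obese dogs 1 to 5 and 93.2, 71.2 and 128.1 CPM in normal dogs 1 to 3. The lowest normal dog stood 3.15 times above the highest obese dog, the widest such gap among the 41 members. DIAPH3 fell by 2.64 on the log2 scale (SE 0.29, edgeR adjusted p = 0.0160), from 97.5 ± 28.7 CPM (SD, n = 3) to 15.7 ± 4.41 CPM (SD, n = 5). The call was kept in 12 of 17 alternatives and was lost without obese dog 1 (edgeR adjusted p = 0.0580), obese dog 2 (0.0748), obese dog 4 (0.0622) or normal dog 3 (0.132), and with replicate number as a block (0.305). In that block fit obese dogs 4 and 5, with no normal dog of the same number, do not inform the group difference. The log2 fold change lay between -3.06 and -2.40 in all 17.

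The related formins DIAPH1 and DIAPH2, which organise actin in many cell types outside division, did not pass the threshold. Their log2 fold changes were 0.19 (SE 0.21, edgeR adjusted p = 0.711) and -0.48 (SE 0.24, edgeR adjusted p = 0.367). DIAPH2 had a far higher CPM than DIAPH3, at 623 ± 106 CPM (SD, n = 5) in obese and 869 ± 127 CPM (SD, n = 3) in normal dogs, with every obese dog below every normal dog.

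RACGAP1 is the GTPase-activating subunit of centralspindlin, the complex that bundles microtubules midway between the separating chromosomes. It was at 4.31, 3.44, 2.72, 2.57 and 1.52 CPM in the obese dogs and at 10.1, 7.52 and 10.9 CPM in the normal dogs. The groups were apart, but the difference did not pass the adjusted threshold (log2 fold change -1.71, SE 0.40, edgeR adjusted p = 0.109). ANLN, the anillin scaffold that ties the ring to the membrane, was at 6.35, 5.88, 21.0, 6.19 and 4.55 CPM in the obese dogs and at 20.7, 14.2 and 18.8 CPM in the normal dogs. Obese dog 3 was above all 3 normal dogs and the other 4 obese dogs were below them. The log2 fold change of ANLN was -1.03 (SE 0.49, edgeR adjusted p = 0.347) with all dogs and -1.67 (SE 0.29, edgeR adjusted p = 0.00942) without obese dog 3. CEP55, which recruits the abscission machinery, and ECT2, the exchange factor that activates RhoA at the ring, overlapped between groups, with log2 fold changes of -0.67 and -0.41. For CEP55 the overlap came from obese dog 1, at 23.5 CPM, and for ECT2 from obese dog 3, at 15.0 CPM. KIF23, the motor subunit of centralspindlin, is described with the kinesins.

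The 10 kinesin motors were all negative, with a median log2 fold change of -1.43, and 7 had every obese dog below every normal dog. KIF23 was at 0.794, 2.18, 1.02, 1.00 and 3.09 CPM in the obese dogs and at 9.21, 4.65 and 10.7 CPM in the normal dogs. The groups did not overlap, and its fold change was the most negative of the motors (-2.31, SE 0.54, edgeR adjusted p = 0.106). KIF4A, a chromosome-bound motor that shortens the overlapping microtubules of the central spindle, was at 6.58, 8.99, 4.76, 11.0 and 13.4 CPM in the obese dogs and at 29.0, 19.6 and 27.5 CPM in the normal dogs. Its groups were also apart (log2 fold change -1.50, SE 0.35, edgeR adjusted p = 0.109). KIF18A, which damps the oscillation of chromosomes at the spindle equator, was at 7.60, 7.93, 2.15, 9.09 and 10.8 CPM in the obese dogs and at 28.8, 17.9 and 28.6 CPM in the normal dogs. Obese dog 3 was the lowest here, unlike for ANLN. The log2 fold change of KIF18A was -1.73 (SE 0.44, edgeR adjusted p = 0.124) with all dogs and -1.54 (SE 0.28, edgeR adjusted p = 0.0120) without obese dog 3.

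KIF11, which pushes the poles apart, and KIF15, which can do so in its place, had log2 fold changes of -1.49 and -1.38. KIF14, which recruits citron kinase to the midbody, was at -1.68, and KIF20B, a motor of late cytokinesis, was at -0.93. Each of these 4 had every obese dog below every normal dog. For the motors KIF2C and KIF18B, which act on microtubule ends, and KIF20A, which moves the passenger complex to the central spindle, the groups overlapped. Their log2 fold changes were -1.04, -1.10 and -0.61, with levels of at most 5.19 CPM in any dog. The overlap came from obese dog 5 for KIF2C (2.86 CPM) and KIF20A (5.19 CPM) and from obese dog 3 for KIF18B (1.93 CPM).

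The 7 mitotic kinases and passenger complex genes were all negative, with a median of -1.81, and 4 had groups that did not overlap. NEK2, a kinase that separates the centrosomes, was at 0.794, 1.32, 0.340, 1.06 and 1.34 CPM in the obese dogs and at 7.87, 3.54 and 5.61 CPM in the normal dogs. Every normal dog was above every obese dog, with the lowest normal dog 2.64 times above the highest obese dog (log2 fold change -2.52, SE 0.52, edgeR adjusted p = 0.0837). In obese dog 3 the NEK2 value rests on 3 counts, with an exact 95% Poisson interval of 0.0702 to 0.994 CPM, which covers counting error only. CDCA8, the borealin subunit of the chromosomal passenger complex, was at 0.454, 1.72, 1.36, 1.78 and 2.57 CPM in the obese dogs and at 13.6, 4.98 and 9.31 CPM in the normal dogs. Its groups were apart as well (log2 fold change -2.54, SE 0.53, edgeR adjusted p = 0.0877). AURKB, the kinase of that complex, was at 21.7, 21.1, 13.3, 12.3 and 26.9 CPM in the obese dogs and at 43.8, 46.3 and 45.8 CPM in the normal dogs. The 3 normal dogs lay close together, above all 5 obese dogs (log2 fold change -1.25, SE 0.30, edgeR adjusted p = 0.109).

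The other subunits of the passenger complex overlapped between groups. BIRC5, survivin, had a log2 fold change of -2.18 (SE 0.73, edgeR adjusted p = 0.215), with normal dogs at 13.4, 1.11 and 15.6 CPM and obese dogs between 1.05 and 4.31 CPM. Normal dog 2 was thus within the range of the obese dogs. INCENP, the scaffold, was at -0.42. PLK1, a kinase needed for bipolar spindles, was at -1.81 with groups apart, and AURKA, the kinase of spindle poles, was at -0.96 with normal dog 2 (2.88 CPM) below obese dogs 2 and 4.

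Of the 6 centromere genes with a row, 5 were negative and 2 had groups that did not overlap, with a median of -1.40. CENPK and CENPU are parts of the inner kinetochore network that sits on centromeric chromatin. CENPK was at 15.4, 20.6, 15.2, 14.4 and 17.6 CPM in the obese dogs and at 49.1, 24.8 and 46.0 CPM in the normal dogs. Obese dogs were close together and below all normal dogs, of which dog 2 was the lowest (log2 fold change -1.26, SE 0.28, edgeR adjusted p = 0.103). CENPU was at 2.95, 3.04, 6.58, 6.97 and 5.77 CPM in the obese dogs and at 16.5, 9.96 and 17.3 CPM in the normal dogs. It had the same order of groups (log2 fold change -1.53, SE 0.40, edgeR adjusted p = 0.132). CENPA, the histone H3 variant that defines the centromere, was at 0.227, 2.12, 6.35, 3.07 and 1.40 CPM in the obese dogs and at 12.7, 4.87 and 11.9 CPM in the normal dogs. Obese dog 3 was above normal dog 2, and the other 4 obese dogs were below every normal dog. The log2 fold change of CENPA was -1.91 (SE 0.73, edgeR adjusted p = 0.260) with all dogs and -2.52 (SE 0.63, edgeR adjusted p = 0.0375) without obese dog 3.

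The remaining centromere genes CENPW, CENPN and CENPM also belong to the inner network. CENPW was at -1.60, with normal dog 2 at 2.77 CPM below 4 of the 5 obese dogs, and CENPN was at -0.64. CENPM was the member with a positive log2 fold change, 0.10 (SE 0.51, edgeR adjusted p = 0.948), which became -0.01 with upper-quartile scaling. Its levels were 1.25 to 4.46 CPM in the obese dogs and 2.21 to 4.02 CPM in the normal dogs. Upper-quartile scaling moved the median of all genes from 0.09 to -0.03 and that of the members from -1.38 to -1.50, so that relative to all genes the members moved little.

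The 3 checkpoint, cohesion and APC/C genes had a median of -2.00. UBE2C is the ubiquitin-conjugating enzyme that works with the anaphase-promoting complex (APC/C), the ligase that triggers chromosome separation. Its level was 2.27, 1.12, 1.36, 0.948 and 2.33 CPM in obese dogs 1 to 5 and 6.05, 4.87 and 8.80 CPM in normal dogs 1 to 3. The lowest normal dog was 2.09 times above the highest obese dog (log2 fold change -2.03, SE 0.46, edgeR adjusted p = 0.106). CDC20, the APC/C activator held back by the spindle checkpoint, was at 2.27, 4.76, 0.227, 3.46 and 3.38 CPM in the obese dogs and at 9.28, 13.4 and 11.5 CPM in the normal dogs. The groups were apart with obese dog 3 lowest, on 2 counts (exact 95% Poisson interval 0.0275 to 0.819 CPM), and the log2 fold change was -2.00 (SE 0.63, edgeR adjusted p = 0.193). SGO1, shugoshin, which protects cohesion at the centromere, was at 0.567, 2.31, 9.19, 2.23 and 3.32 CPM in the obese dogs and at 5.69, 5.86 and 6.63 CPM in the normal dogs. Obese dog 3 was above all normal dogs and the other 4 obese dogs below them. The log2 fold change of SGO1 was -0.79 (SE 0.68, edgeR adjusted p = 0.604) with all dogs and -1.53 (SE 0.50, edgeR adjusted p = 0.0866) without obese dog 3.

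The chromosome structure genes are TOP2A, the topoisomerase that untangles sister DNA, and MKI67, the Ki-67 protein that coats mitotic chromosomes and marks cells in cycle. TOP2A was at 14.3, 19.6, 40.4, 15.9 and 29.6 CPM in the obese dogs and at 96.3, 53.9 and 76.5 CPM in the normal dogs. The groups did not overlap, with obese dog 3 the highest of the obese (log2 fold change -1.66, SE 0.36, edgeR adjusted p = 0.0982). MKI67 was at 20.1, 14.5, 143.9, 13.3 and 23.4 CPM in the obese dogs and at 146.8, 89.7 and 116.2 CPM in the normal dogs. Obese dog 3 lay within the normal range while the other 4 obese dogs were far below it, among them dog 4, of the same breed as dog 3. The log2 fold change of MKI67 was -1.45 (SE 0.78, edgeR adjusted p = 0.400) with all dogs and -2.76 (SE 0.28, edgeR adjusted p = 0.00113) without obese dog 3.

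The 8 spindle-associated genes had the median nearest to 0 among the roles, -0.78, and 3 had groups that did not overlap. TPX2, which activates AURKA and nucleates microtubules near chromosomes, was at 5.90, 7.93, 13.0, 7.03 and 13.6 CPM in the obese dogs and at 31.2, 26.1 and 35.8 CPM in the normal dogs. All normal dogs were well above all obese dogs (log2 fold change -1.71, SE 0.33, edgeR adjusted p = 0.0747). HMMR, a microtubule-binding protein of spindle poles, was at 8.96, 7.67, 9.64, 10.4 and 11.0 CPM in the obese dogs and at 15.2, 15.4 and 21.2 CPM in the normal dogs. PRC1, which cross-links the antiparallel microtubules of the midzone, was at 8.05, 9.26, 9.41, 9.81 and 7.99 CPM in the obese dogs and at 13.6, 14.7 and 15.4 CPM in the normal dogs. Both had tight, separate groups but smaller fold changes (HMMR -0.86, SE 0.27, and PRC1 -0.71, SE 0.26, edgeR adjusted p = 0.201 and 0.246).

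The other 5 spindle-associated genes overlapped between groups. ASPM, which focuses spindle poles, was at 40.8 CPM in obese dog 3, within the normal range of 30.3 to 50.1 CPM, and at 1.81 to 11.8 CPM in the other obese dogs. Its log2 fold change was -1.65 (SE 0.78, edgeR adjusted p = 0.346) with all dogs and -2.70 (SE 0.49, edgeR adjusted p = 0.0118) without obese dog 3. DLGAP5, which stabilises kinetochore fibres, was at -0.33, with obese dog 3 (19.4 CPM) above every normal dog. TACC3, also of kinetochore fibres, was at -0.99, and normal dog 2 stood alone at 247.1 CPM against 15.7 to 106.7 CPM in the other 7 dogs. Its log2 fold change was 0.24 without normal dog 2 and 0.0731 with replicate number as a block. CKAP2 and NUSAP1, which bind and bundle spindle microtubules, were near 0, at -0.11 and -0.06. NUSAP1 had the highest mean CPM of the members, at 154 ± 67.2 CPM (SD, n = 5) in obese and 160 ± 10.2 CPM (SD, n = 3) in normal dogs.

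**Figure D3:**
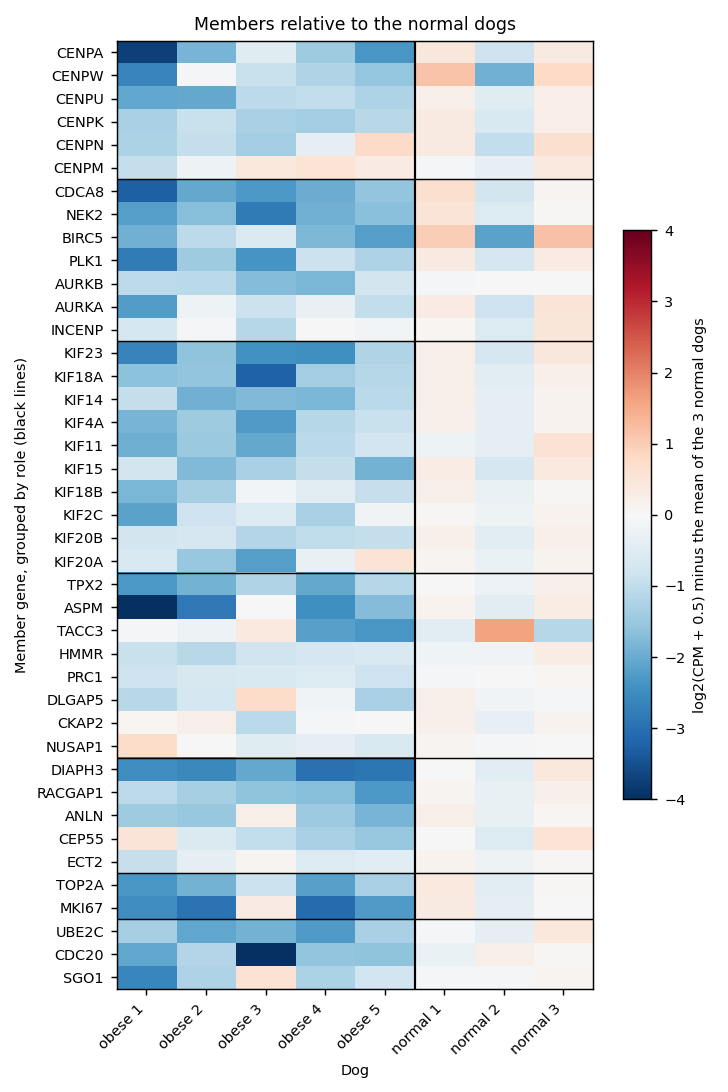
Log2(CPM + 0.5) of each member in each dog, minus the mean of the 3 normal dogs, with members in rows grouped by role and dogs in columns. Blue is below and red above the normal mean; obese dog 3 is pale or red for MKI67, ASPM, ANLN, SGO1 and DLGAP5 and dark blue for KIF18A, NEK2 and CDC20.

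Among the obese dogs, dog 3 departed from the others in both directions. It was over 2 times the median of the other obese dogs for 10 members (CENPA, BIRC5, KIF18B, ASPM, DLGAP5, ANLN, TACC3, MKI67, TOP2A and SGO1). It was under a ratio of 0.5 to that median for 9 members (CENPN, PLK1, INCENP, KIF18A, KIF20A, KIF4A, NEK2, CKAP2 and CDC20). Obese dog 1, with the shallowest library, was over 2 times for 3 members and under 0.5 for 12, and it had fewer than 10 counts for 10 members. Obese dogs 2, 4 and 5 were over 2 times for 2, 2 and 4 members and under 0.5 for 3, 1 and 3. At or above the lowest normal dog, obese dog 3 had 12 members and was the only such obese dog for 7 of them. How often each obese dog departs so over all genes was not computed, so these counts are not shown to be particular to the members. The erythroid and neutrophil values of obese dog 3, and its share of the gene with the most counts, are given above. Their part in these levels was not tested.

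**Figure D4:**
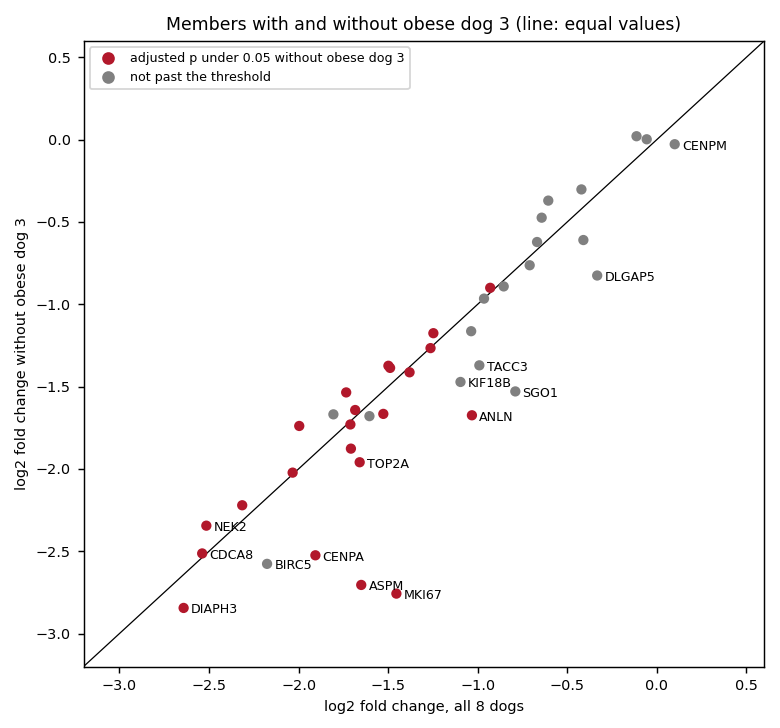
Log2 fold change of each member with all 8 dogs (x axis) and without obese dog 3 (y axis), with a line of equal values. Red points are the 22 members past the adjusted threshold without obese dog 3; MKI67, ASPM and ANLN lie furthest below the line among the red points, and 23 of 41 members are more negative without that dog.

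Among the normal dogs, dog 2 was the lowest for 35 of 41 members. The share of all genes with this dog lowest was not computed. For 8 members (CENPA, CENPW, AURKA, BIRC5, INCENP, KIF2C, KIF18B and ASPM) it was the only normal dog at or below the highest obese dog. Without normal dog 2, 29 members had every obese dog below the other normal dogs (8.57% of all genes), and the median of the members was -1.64. Its summed neutrophil markers were high (7020 CPM) and its summed plasma cell markers were the lowest of the normal dogs (323 CPM), and their part in the members' levels was not tested.

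Summed markers of other cell types are given here beside the members. The 10 plasma cell markers, none at 0 in all dogs, summed to 139 to 261 CPM in the obese dogs and to 323 to 1158 CPM in the normal dogs. Of the 9 tested, 8 were negative, 6 had groups that did not overlap, and TNFRSF17, the receptor BCMA of plasma cells, was called lower. The 5 platelet markers with a row summed to 66.3 to 1230 CPM in the obese dogs and to 7.19 to 31.1 CPM in the normal dogs, and the 8 T cell markers to 340 to 942 CPM and 237 to 282 CPM. The 7 monocyte markers with a row summed to 739 to 1367 CPM in the obese and 1412 to 2608 CPM in the normal dogs, but 5 of the 7 had a positive log2 fold change (median 0.22). VCAN made up much of that sum, at 201 to 851 CPM in the obese and 920 to 2191 CPM in the normal dogs. B cell markers summed to 33.3 to 216 CPM and 36.1 to 67.4 CPM, and cytotoxic markers to 47.2 to 130 CPM and 55.9 to 88.1 CPM. The 5 progenitor markers with a row summed to 8.62 to 18.6 CPM and 4.29 to 12.7 CPM. The part of these cell types in the members' difference was not tested.

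Other genes of cell division gave a setting for the members. Of 23 outer kinetochore and checkpoint genes tested, 15 were negative, with a median of -0.67. The 5 called lower by edgeR were CENPF, NUF2, CENPE, SPC24 and NDC80, which link kinetochores to microtubules, with log2 fold changes of -2.62, -3.04, -2.30, -2.56 and -2.53 and adjusted p from 0.0194 to 0.0390. Of 15 replication genes, all 15 were negative, with a median of -1.12 and none called. The 3 with the smallest p were the helicase subunit MCM5 (-1.95), the ribonucleotide reductase subunit RRM1 (-1.04) and the clamp PCNA (-1.36), with edgeR adjusted p = 0.0625, 0.0768 and 0.106. Of 17 other mitotic spindle and cytokinesis genes, 15 were negative with a median of -1.09 and none called, led by the centriole kinase PLK4 (-3.15, edgeR adjusted p = 0.0590), the motor KIF22 (-2.86) and the centriole protein STIL (-1.55). Of 13 other centromere genes, 10 were negative with a median of -0.29. CENPP (-1.55) and HJURP, the chaperone that loads CENPA (-2.49), had an edgeR adjusted p of 0.0510 each, and CENPT was at -3.85 with 0 to 0.669 CPM in the obese dogs.

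The spindle and APC/C genes that cells also use outside division had medians nearer to 0. The 22 spindle genes of general cell use had a median of -0.19, with 15 negative and none called. The 3 with the smallest p were the dynactin subunit DCTN1 (1.19, edgeR adjusted p = 0.102), higher in every obese dog than in every normal dog, NUMA1 (-0.82) and EML4 (-0.64). The 15 core APC/C genes had a median of 0.24, with 6 negative and none called, and CDC27 (-0.74), ANAPC11 (0.48) and ANAPC2 (0.50) had the smallest p. Differences between these lists were not tested.

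**Figure D5:**
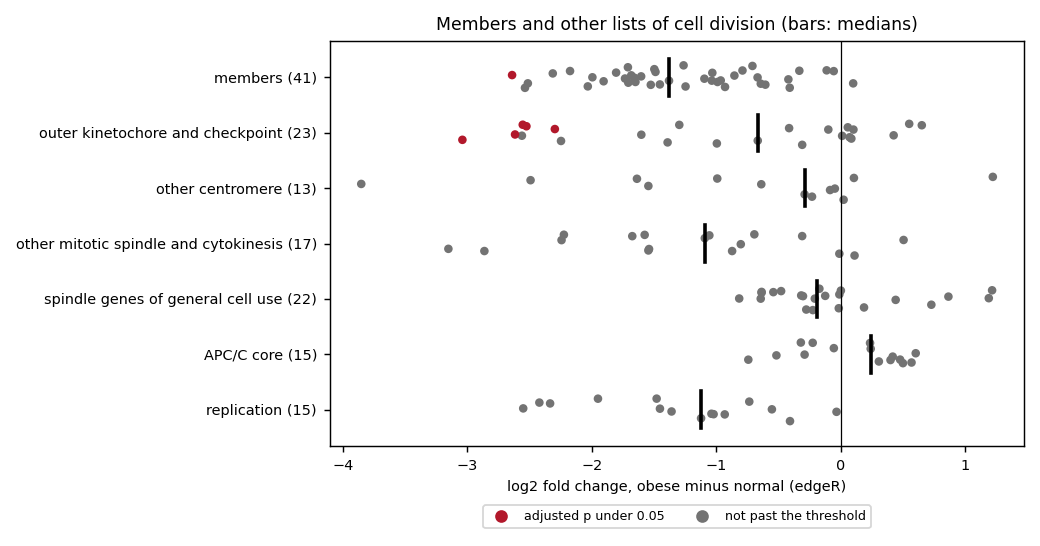
Log2 fold change (obese minus normal, edgeR) of each tested gene in the members and in 6 other lists of cell division, with the number tested in brackets and a bar at each median. Red points passed the adjusted threshold: DIAPH3 among the members and 5 outer kinetochore genes.

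Some member counts may include reads of a neighbour. In the reference annotation, 17 of the 41 members overlap another counted gene and 24 do not, with no strand setting stated for the counting. Among the members described by dog, CENPA (580 counts over all dogs) overlaps SLC35F6 (1289 counts) and a long non-coding gene (574 counts), and CENPU (951) overlaps one with 465 counts. CENPK (2786) overlaps PPWD1 (2088), while the neighbours of AURKB, KIF18A, KIF4A and PRC1 had at most 177 counts each. ANLN (1236) overlaps KIAA0895 (1845), and TOP2A (4628) overlaps a long non-coding gene with 722 counts. KIF20A (308) overlaps BRD8 (5321), AURKA (483) overlaps CSTF1 (1818) and CKAP2 (4638) overlaps VPS36 (6705). PLK1 (565) overlaps ERN2 (430), and NUSAP1 (16052) overlaps OIP5 (1148). The shared stretch was 60 bases for PLK1, 213 for AURKA, 239 for ANLN, 241 for KIF20A with BRD8, 250 for TOP2A and 594 for CENPK with PPWD1. It was far longer for CENPU (4699 bases), CENPA with SLC35F6 (8866), NUSAP1 with OIP5 (18213) and CKAP2 (39600). The values of these members are uncertain to the extent that reads were shared. Overlaps were taken over whole gene spans, introns included, on either strand.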

How the data were processed

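RNA of PBMCs from 8 dogs was sequenced. The authors deposited raw whole-number counts per gene symbol, 1 table per dog, not normalized. Bowtie2 and bedtools are named per the submitters' processing notes, with versions, roles, genome build, annotation and strand not given in the sources used here. Groups come from the sample titles. Of rows sharing a symbol, the one with the highest mean was read under that symbol. The 411 other such rows, no member among them, stayed among the gene rows under separate names and could be tested. Library totals ran from 10264202 to 14910982. Counts were filtered by group (filterByExpr), scaled by TMM and fitted across all 20632 remaining genes with edgeR 4.0.16 (robust quasi-likelihood, R 4.3.3), group as the only term, with Benjamini-Hochberg adjustment over all of them and a threshold of 0.05. DESeq2 1.42.0, limma 3.58.1, other scalings and filters, a replicate block and leaving out each dog were alternatives. The script was tested on simulated counts. No library pair agreed within sampling noise (chi-square per degree of freedom at least 35.9). Poisson intervals are exact at 95%.

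Members and lists were chosen with earlier results of these data known. Values by dog are given for called members and for the 3 members with the smallest p in each role; from other lists, called genes and the 3 with the smallest p are named, and DIAPH1 and DIAPH2 were added as relatives of DIAPH3. Gene overlaps were taken from the RefSeq table of UU_Cfam_GSD_1.0, which matched 43 of 43 members; no coordinates are given, since the build of the counts is not known. Replicate numbers were not taken to pair the samples.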

Additional observations from a re-analysis of the deposited data

Results flagged for a closer look

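With 5 obese dogs, a dog was singled out where its distance to the nearest other dog on the log2(CPM + 0.5) scale was more than 0.71 of the whole range of its group (Dixon's 95% value, which chance passes in about 1 in 20 groups). On that scale obese dog 3 was so for 4 of the 41 members. MKI67 was highest there at 143.9 CPM and ANLN was highest at 21.0 CPM. KIF18A was lowest there at 2.15 CPM and CKAP2 was lowest at 20.5 CPM. On CPM itself, a scale added after the data were seen, 3 members passed, all highest in obese dog 3: MKI67 (ratio 0.923), ANLN (0.890) and ASPM (0.745, at 40.8 CPM), while CKAP2 (0.709) and KIF18A (0.631) did not. No other obese dog was singled out for any member on either scale, and the group of 3 normal dogs was too small for this test. The rule was applied to the members only. How many of all genes it singles out in obese dog 3 was not computed, so these counts are not shown to be particular to the members.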

How the results depend on the processing

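The median of the members stayed between -1.64 and -1.25 under all 17 alternatives, and 37 of 41 members were negative in each. Over all genes, edgeR called 38 lower and 10 higher. Library totals without TMM gave 7 and 0 (2636 at an unadjusted p under 0.05), DESeq2 gave 434 and 612, and limma-voom with quality weights gave 2043 and 1881, with 1, 19 and 28 members lower. Without TMM, 15 members had every obese dog below every normal dog (5.59% of all genes), where TMM scaling gave 21 (5.16%). Leaving out 1 dog gave 2 (without obese dog 1 or 2, or normal dog 3) to 1023 genes lower (without obese dog 3), 0 to 661 higher and 0 to 22 members lower. CENPM, NUSAP1, CKAP2 and TACC3 changed sign under some alternatives. CENPM was -0.0111 with upper-quartile scaling, -0.0685 with limma-voom and -0.10 to 0.35 with 1 dog left out. With 1 dog left out NUSAP1 ran from -0.35 to 0.0530, CKAP2 from -0.29 to 0.0202 and TACC3 from -1.43 to 0.24, the last without normal dog 2. The causes were not tested.

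A fit with replicate number as a block (replicate block) called 0 genes lower, 0 higher and 0 members by edgeR, with 1634 genes and 20 members at an unadjusted p under 0.05. In the block fit CENPM was -0.30, NUSAP1 0.0794 and TACC3 0.0731. Same-numbered dogs did not deviate together (correlations -0.02, -0.23 and 0.01), and pairs with different numbers ran from -0.29 to 0.25. So few pairs cannot exclude a link between same-numbered dogs. The numbers were treated as names.

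Depth limits the scarce members: a count of 0 allows up to 0.167 to 0.340 CPM by dog, and obese dog 1 had fewer than 10 counts for 10 members. With 3 normal dogs of 1 breed, the normal spread is poorly known.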
